A study of Homo sapiens with 8 samples.

Results

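Nascent transcription was compared between senescent cells that carried an shRNA against METTL14 (shMETTL14) and senescent cells that carried an shRNA against METTL3 (shMETTL3). The comparison rests on 4 of the 8 fastGRO-seq samples of the study, 2 libraries for each knockdown, and takes in all 27924 gene rows that are not ribosomal RNA among 27945 rows in all. The cells were IMR90, primary human lung fibroblasts, that carried a fusion of H-RAS and the estrogen receptor (ER:RAS). Both knockdown groups were treated with 100 nM 4-hydroxytamoxifen (4-OHT), which switches the RAS fusion on and drives the cells into senescence, and were harvested on day 6. The other groups were senescent cells with a control shRNA (shControl), treated in the same way, and control cells that are labeled wild type, with no shRNA named. Each target was knocked down with 1 lentiviral shRNA, so an effect of the hairpin itself and an effect of the loss of its target cannot be told apart here. The groups were chosen from the labels alone, and no measured value was used.

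METTL3 and METTL14 form the core of the m6A methyltransferase complex, which methylates adenosines in nascent RNA. METTL3 binds the methyl donor and carries out the reaction, and METTL14 holds the RNA and stabilizes METTL3. Since both subunits are needed for methylation, a direct comparison of the knockdowns asks where transcription differs although the same complex was targeted. In fastGRO-seq, engaged polymerases in isolated nuclei extend their RNA with a labeled nucleotide, and the labeled RNA is captured and sequenced, so the reads over a gene follow the amount of transcription going on across its exons and introns.

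The libraries held 1513930 to 2048475 counts outside ribosomal RNA, which itself took 86.2% to 92.5% of all counts. The shMETTL3 replicates differed more from each other than the other pairs did, with a variance between replicates of 5.26 times the sampling noise against 2.52 times with shMETTL14, 1.56 with shControl and 1.72 in control cells. In a principal component analysis the second component held 27.4% of the variance and separated the knockdowns, with the shMETTL3 libraries at -23.7 and -34.7, the shMETTL14 libraries at 36.8 and 21.3, and the control and shControl libraries all between -1.63 and 1.95. All 12 fibroblast markers had counts in the knockdown libraries, and they summed to 12864 and 11534 with shMETTL3 and 7637 and 8233 with shMETTL14. With shControl the sums were 9235 and 11477. Of the 11 fibroblast markers tested, 6 were lower with shMETTL14 and 1 was higher. The 8 epithelial markers summed to 3 and 3 with shMETTL3 and 23 and 13 with shMETTL14, and the 1 tested was higher. The 7 endothelial markers summed to 62 and 75 with shMETTL3 and 17 and 30 with shMETTL14, and the 1 tested was lower. The sums were 46 and 30 with shMETTL3 and 52 and 46 with shMETTL14 for 8 haematopoietic markers, and 12 and 14 with shMETTL3 and 4 and 10 with shMETTL14 for 4 muscle markers. Of the haematopoietic markers 4 were at 0 in all knockdown libraries, and other markers at 0 were EPCAM, ESRP1, KRT14, KRT5 (epithelial), CLDN5 (endothelial) and MYOD1, MYOG (muscle). The 4 neural markers summed to 126 and 99 counts with shMETTL3 and to 480 and 390 with shMETTL14, mainly through TUBB3, a tubulin gene (log2 fold change 2.03). In bulk samples, fewer cells that transcribe a gene and less transcription per cell cannot be told apart.

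The targeted genes separated the groups in the direction of their labels. METTL3 had 16.4 and 18.04 normalized counts with shMETTL3 and 72.96 and 58.97 with shMETTL14. Both shMETTL14 libraries lay above both shMETTL3 libraries, and the log2 fold change of shMETTL14 over shMETTL3 was 1.93 (SE 0.31, adjusted p = 1.9e-05, edgeR's quasi-likelihood test). METTL14 had 42.1 and 45.6 normalized counts with shMETTL3 and 17.99 and 14.7 with shMETTL14 (log2 fold change -1.41, SE 0.32, adjusted p = 0.001, edgeR). With shControl METTL3 stood at 91.03 and 52.3 and METTL14 at 28.4 and 31.2. Relative to shControl, METTL3 was at -2.04 with shMETTL3 and -0.11 with shMETTL14, and METTL14 at 0.56 with shMETTL3 and -0.86 with shMETTL14 on the log2 scale. The counts behind both genes were low, at 16 and 19 raw counts of METTL3 and 18 and 14 of METTL14 in the libraries of their own knockdown. METTL3 lies on chromosome 14 from 21966275 to 21979517 and METTL14 on chromosome 4 from 119606525 to 119633425 of hg19, and METTL3 shares 7.90% of its span with its neighbor TOX4 on the other strand.

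The knockdowns differed at a large share of genes, in both directions and to about the same extent. Of 12823 genes tested, 2113 were higher and 2394 lower with shMETTL14 than with shMETTL3 at an adjusted p below 0.05, or 16.5% and 18.7% of the genes, and 35.1% together. The median log2 fold change over all genes tested was 0.011. The change was at least 2-fold for 1103 of the higher and 1092 of the lower genes. In 4487 of the 4507 called genes the 2 libraries of one knockdown both lay above the 2 of the other. A call nearly requires such a separation, so it is no separate support. The counts of called genes in the lists below are to be read beside these shares of all genes tested, 16.5% higher and 18.7% lower. A value given for a gene without a unit is its log2 fold change of shMETTL14 over shMETTL3. Since counts were normalized by TMM, which takes most genes as equal, each change is relative to the bulk of genes. The balance between directions rests on that scaling. With counts scaled to the library total, 1172 genes were higher and 3481 lower, and with the total outside ribosomal RNA 3190 were higher and 1653 lower, so that 25.2% and 65.9% of the calls were rises against 46.9% with TMM. These scalings moved the median of all genes to -0.25 and 0.22 on the log2 scale. Without shMETTL14 replicate 1, 979 genes were higher and 1404 lower. Of the called genes, 887 share 5% or more of their span with another gene, and among those named here CDKN1A, ITGA1, LIF, LOXL1, MMP3, RAD50, SMAD1 and TNFAIP3 share 6.50% to 12.3%. HMGA2 and FLNC share 23.6% and 31.6% of theirs, mainly with LOC100129940 and FLNC-AS1 on the other strand.

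**Figure D1:**
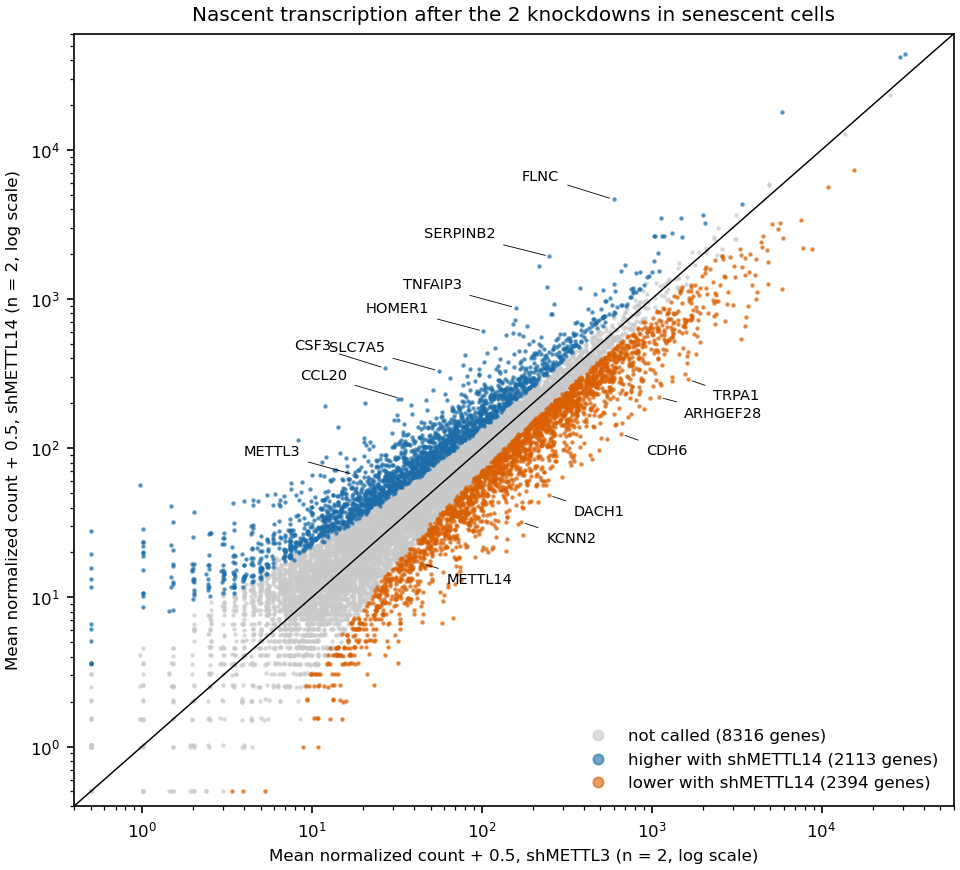
Mean normalized count of each gene tested with shMETTL3 (x axis) and with shMETTL14 (y axis), each the mean of 2 libraries on a log scale, colored by the edgeR call. The 2113 genes higher with shMETTL14 lie above the diagonal and the 2394 lower genes below it, and named genes such as CSF3, FLNC and SERPINB2 stand well above it.

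The genes that were much higher with shMETTL14 included secreted immune factors, regulators of NF-κB and cytoskeletal genes. CSF3, the gene of granulocyte colony-stimulating factor on chromosome 17 from 38171614 to 38174066, had 36.9 and 16.1 normalized counts with shMETTL3 and 374 and 312 with shMETTL14 (log2 fold change 3.70, SE 0.23, adjusted p = 2.2e-11, edgeR). With shControl it stood at 342 and 283, close to the shMETTL14 libraries, while both shMETTL3 libraries lay far below, and without shMETTL3 replicate 1 the log2 fold change was 4.41. SERPINB2, an inhibitor of plasminogen activators, had 252 and 248 normalized counts with shMETTL3 and 2139.9 and 1716 with shMETTL14 (log2 fold change 2.95) and again stood near the shControl level of 1912 and 1667. CALM3, one of the calmodulin genes, had 19.5 and 20.9 normalized counts with shMETTL3 and 228 and 175 with shMETTL14 (log2 fold change 3.31). VAT1, a vesicle membrane protein, had 93.4 and 64.6 normalized counts with shMETTL3 and 491 and 355 with shMETTL14 (log2 fold change 2.43). In CALM3 and VAT1 the shMETTL3 libraries were likewise the ones away from shControl, at log2 fold changes of -2.71 and -2.21 against 0.60 and 0.21 for shMETTL14.

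In other genes of this group the shMETTL14 libraries were the ones that stood well above shControl. FLNC, which encodes the actin crosslinker filamin C on chromosome 7 from 128470483 to 128499328, had 653 and 541 normalized counts with shMETTL3 and 5090.4 and 4213 with shMETTL14 (log2 fold change 2.96, SE 0.16, adjusted p = 2.6e-13, edgeR) against 1077 and 1108 with shControl. FLNC-AS1, its antisense partner, shares 73.1% of its span with FLNC, and its log2 fold change of 2.93 cannot be told apart from that of FLNC. HOMER1, a scaffold protein, had 85.2 and 119 normalized counts with shMETTL3 and 672 and 543 with shMETTL14 against 125 and 115 with shControl (log2 fold change between the knockdowns 2.57). SLC7A5, the transporter that brings leucine and other large neutral amino acids into the cell, had 50.3 and 60.8 normalized counts with shMETTL3 and 362 and 296 with shMETTL14 against 67.4 and 62.3 with shControl (log2 fold change 2.56). TNFAIP3, a ubiquitin-editing brake on NF-κB, TRAF1, an adaptor of TNF receptors, and TNFAIP2, a TNF-induced gene, had log2 fold changes of 2.45, 2.36 and 2.76. CCL20, the chemokine that binds CCR6, had 30.8 and 35.1 normalized counts with shMETTL3 and 243 and 185 with shMETTL14 against 123 and 110.2 with shControl (log2 fold change 2.69), so that the knockdown libraries lay on opposite sides of shControl.

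The genes that were much lower with shMETTL14 encode membrane, adhesion and signaling proteins among others. TRPA1, a cation channel that senses irritants, had 1596 and 1681 normalized counts with shMETTL3 and 135 and 442 with shMETTL14 (log2 fold change -2.51, SE 0.26, adjusted p = 4.5e-08, edgeR). TRPA1 shares 64.5% of its span with MSC-AS1. NEK10, a protein kinase on chromosome 3 from 27152394 to 27410951, had 3221 and 3907 normalized counts with shMETTL3 and 365 and 960.4 with shMETTL14 (log2 fold change -2.43). CDH6, a cadherin on chromosome 5 from 31193762 to 31329253, had 621 and 703 normalized counts with shMETTL3 and 62.97 and 185 with shMETTL14 against 274 and 305 with shControl (log2 fold change -2.42). In these genes shMETTL14 replicate 1 was lower than replicate 2, and both lay below both shMETTL3 libraries. TTC29 (log2 fold change -2.79), the potassium channel gene KCNN2 (-2.44, 36.6% of its span shared), CADPS, which primes vesicles for release (-2.41), the transcription factor gene DACH1 (-2.39), the guanine nucleotide exchange factor gene ARHGEF28 (-2.34), INSC (-2.34), the glutamate transporter gene SLC1A2 (-2.33), the long noncoding RNA CASC15 (-2.33) and MME, which encodes the peptidase neprilysin (-2.33), completed the 12 largest falls in the set of called genes that averaged 100 or more raw counts and whose knockdown libraries did not overlap. Some genes with fewer counts, such as HEY1, fell further. Against shControl, ARHGEF28 was 1.47 with shMETTL3 and -0.88 with shMETTL14 on the log2 scale, INSC 2.49 and 0.15, and SLC1A2 2.14 and -0.19. Without shMETTL14 replicate 2 the values of TTC29, TRPA1, NEK10, CDH6, DACH1, ARHGEF28, INSC, CASC15 and MME were -5.09, -3.59, -3.28, -3.38, -3.69, -3.24, -3.16, -2.99 and -3.07, and without replicate 1 those of TTC29, TRPA1 and DACH1 were -1.94, -1.91 and -1.71. In INSC and SLC1A2 the shMETTL3 libraries thus stood above shControl while the shMETTL14 libraries stood near it.

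**Figure D2:**
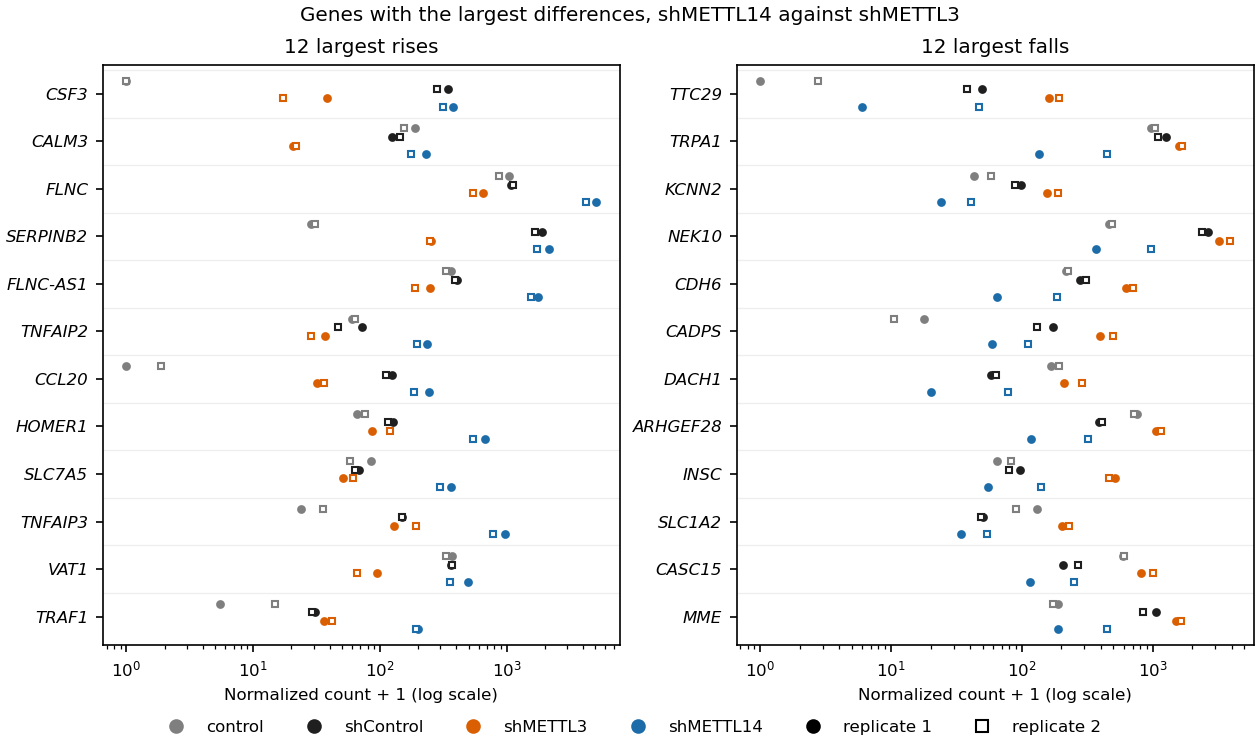
Normalized count plus 1 on a log x axis for the 12 genes with the largest rises and the 12 with the largest falls in the set of called genes that averaged 100 or more raw counts without overlap, with 1 point per library in 4 groups of 2. For each gene both shMETTL14 points lie on one side of both shMETTL3 points, a condition of the choice of these genes, and the shControl points show that in CSF3 and SERPINB2 the shMETTL3 libraries were the ones away from shControl.

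Most NF-κB subunit and feedback genes were higher with shMETTL14. NF-κB is held in the cytoplasm by IκB proteins and, once released, switches on genes of inflammation and of its own inhibitors. Of 20 members tested, 16 were higher and 0 lower, with a median log2 fold change of 1.29 beside 0.011 over all genes tested. NFKBIA, which encodes the inhibitor IκBα, had 71.8 and 30.4 normalized counts with shMETTL3 and 277 and 214 with shMETTL14 (log2 fold change 2.28, SE 0.24, adjusted p = 5.7e-08, edgeR). TNFAIP3 had 127 and 189.9 normalized counts with shMETTL3 and 964 and 780.3 with shMETTL14 and TRAF1 had 34.9 and 40.8 normalized counts with shMETTL3 and 198 and 193 with shMETTL14. In all 3 genes both shMETTL14 libraries lay above both shMETTL3 and both shControl libraries. BIRC3, an inhibitor of apoptosis, had a log2 fold change of 2.27 and ICAM1, an adhesion molecule for leukocytes, one of 1.66. The subunit genes themselves were higher by 1.51 (REL), 1.35 (RELA), 1.24 (RELB), 0.86 (NFKB2) and 0.71 (NFKB1) on the log2 scale, with NFKB1 at 419.6 and 480.4 normalized counts with shMETTL3 and 763 and 706 with shMETTL14 and 264 and 220.4 with shControl. NFKB2 did not pass without shMETTL14 replicate 1 (0.75). Without shMETTL3 replicate 1 NFKBIA was at 3.02. After offsets for gene length and GC content 13 members were called higher and 0 lower.

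Short promoter stretches of members of this list, and of the chemokine genes CCL20, CXCL2, CXCL3 and CXCL5, are shown because they hold the sequence that NF-κB dimers bind. The 250 bases before each start in RefSeq (GRCh38.p14) were searched on both strands for the 10-base NF-κB consensus, and 14 of the 16 genes called higher had a promoter entry. A match at any start of the gene was found for 9 of them, against 15.4% of the 9792 genes tested that had an entry. These genes were picked for their link to NF-κB and for their calls, so the shares are no test. Each window has 30 bases with the match in capitals, on the strand of the gene, and the distance is from the first base of the match to the start.
NFKBIA, 81 bases before the start, chr14:35404811-35404840, - strand: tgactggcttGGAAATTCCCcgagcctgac
TNFAIP3, 67 bases before the start, chr6:137867182-137867211, + strand: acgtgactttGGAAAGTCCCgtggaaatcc
BIRC3, 199 bases before the start, chr11:102317275-102317304, + strand: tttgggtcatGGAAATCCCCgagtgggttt
NFKB1, 49 bases before the start, chr4:102501300-102501329, + strand: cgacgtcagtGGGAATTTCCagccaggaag
NFKB2, 107 bases before the start, chr10:102394461-102394490, + strand: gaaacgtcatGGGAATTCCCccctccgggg
REL, 47 bases before the start, chr2:60881517-60881546, + strand: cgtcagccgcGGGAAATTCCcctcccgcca
CCL20, 79 bases before the start, chr2:227813753-227813782, + strand: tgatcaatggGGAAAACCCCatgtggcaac
CXCL2, 78 bases before the start, chr4:74099254-74099283, - strand: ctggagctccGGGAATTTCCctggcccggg
CXCL3, 79 bases before the start, chr4:74038749-74038778, - strand: ctggagctccGGGAATTTCCctggcccggc
CXCL5, 91 bases before the start, chr4:73998749-73998778, - strand: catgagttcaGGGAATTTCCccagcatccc
CXCL2, CXCL3 and CXCL5, which lie in the same stretch of chromosome 4, hold a match of the same letters, and their log2 fold changes were 2.34, 1.66 and -1.13. Each of these values rested on 1 library to some extent, with CXCL2 at 1.76 without shMETTL3 replicate 1 and 3.51 without shMETTL3 replicate 2, CXCL3 at 2.58 without shMETTL3 replicate 1, and CXCL5 at -1.97 without shMETTL14 replicate 2. Matches were also found in ARHGEF28, CASC15 and MME, which are among the 12 named falls, in TNIP1, a list member that was not called, and in CXCL1, CXCL6 and CXCL10. A match is a description of the letters, and binding was not measured.

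Immediate-early and AP-1 genes, which respond within minutes to growth factor and stress signals, were also mostly higher with shMETTL14. Of 22 tested, 13 were higher and 2 lower (median log2 fold change 0.95). These were 59.1% and 9.09%, beside 16.5% and 18.7% of all genes tested. Among all genes with a GC content of 54% or more, the class of the list's median, 32.7% were higher and 3.40% lower. EGR1 had 166 and 111 normalized counts with shMETTL3 and 617 and 521 with shMETTL14 (log2 fold change 2.04, SE 0.17, adjusted p = 1.3e-09, edgeR), and FOSL1, the Fos family member of AP-1 found in RAS-transformed cells, had 97.5 and 73.1 normalized counts with shMETTL3 and 353 and 325 with shMETTL14 (log2 fold change 1.99). For both genes the shMETTL14 libraries lay above all other libraries of the study. EGR4 had at most 3 raw counts in both shMETTL3 libraries and 34 and 21 with shMETTL14, which puts it at least 9.47-fold higher against 3 counts per library. JUN, the main partner in AP-1, was higher by 1.44 on the log2 scale, and MYC by 1.03. The 2 lower members, NR4A3 (-0.71) and FOSB (-0.71), did not pass without shMETTL14 replicate 1, at -0.54 and -0.74. NR4A3 also did not pass without shMETTL3 replicate 2 (-0.48), nor FOSB without shMETTL3 replicate 1 (-0.30) or without shMETTL14 replicate 2 (-0.69). ERK feedback genes were split, with 7 higher and 4 lower of 18 tested, 4 higher and 3 lower without shMETTL14 replicate 1, and 5 higher and 7 lower with counts scaled to the library total. The shares of the ERK feedback genes, 38.9% higher and 22.2% lower, stand beside 16.5% and 18.7% of all genes tested. DUSP1, a phosphatase of MAP kinases, had 177 and 154 normalized counts with shMETTL3 and 628 and 531 with shMETTL14 (log2 fold change 1.81) and PHLDA1 a log2 fold change of 1.21. The ETS factor gene ETV1 (-2.14) and the phosphatase genes DUSP10 (-1.63) and DUSP6 (-0.79), the latter specific for ERK, were lower.

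**Figure D3:**
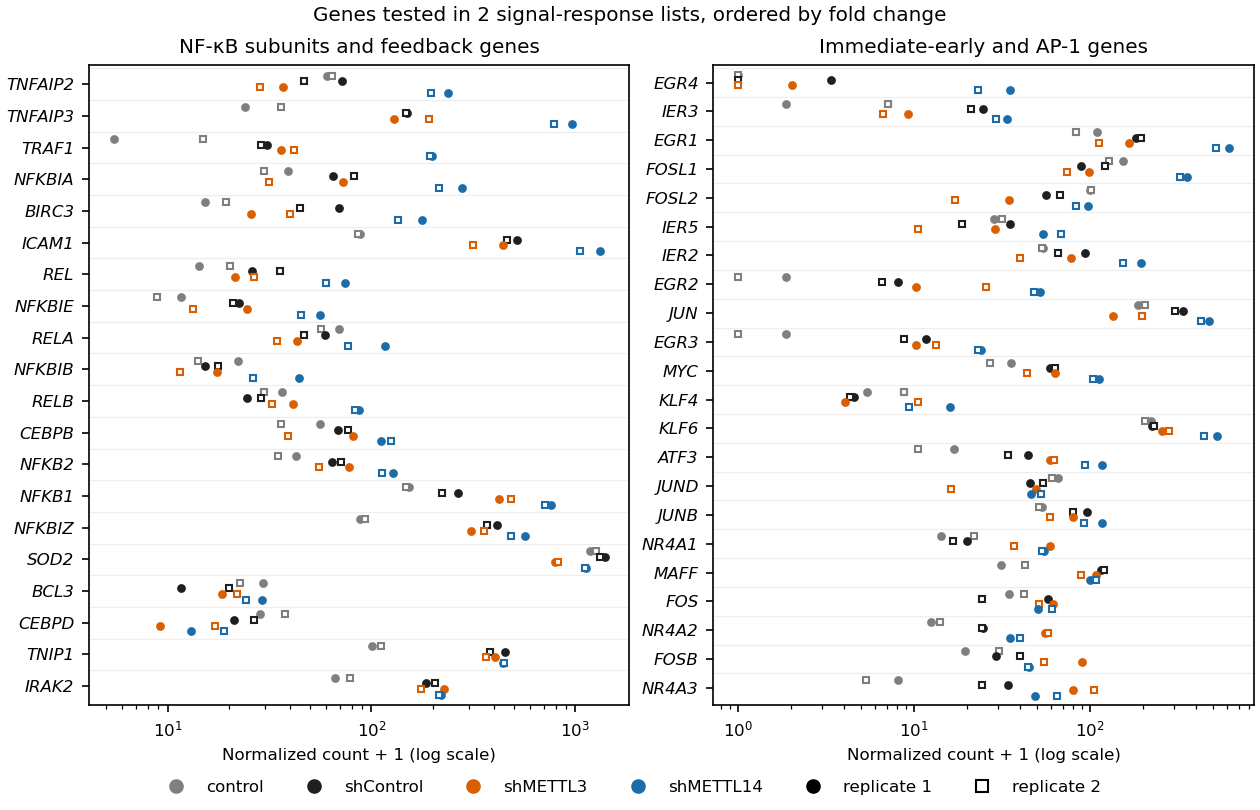
Normalized count plus 1 on a log x axis for the 20 genes tested among NF-κB subunits and feedback genes and the 22 among immediate-early and AP-1 genes, with 1 point per library. The rows are ordered by fold change. Of the rows, 16 of the 20 and 13 of the 22 were called higher with shMETTL14, beside 16.5% of all genes tested.

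Cytokine and chemokine genes differed member by member. All 3 CC chemokine genes tested were higher with shMETTL14. CCL2, which recruits monocytes, had 14.4 and 5.70 normalized counts with shMETTL3 and 44.98 and 40.02 with shMETTL14 (log2 fold change 2.09, or 2.89 without shMETTL3 replicate 1). Among 7 CXC chemokine genes tested, 3 were higher, CXCL2 (2.34) and CXCL3 (1.66) among them, and CXCL5 (-1.13) was lower. CXCL2 had 9.23 and 31.3 normalized counts with shMETTL3 and 99.9 and 111 with shMETTL14 and CXCL5 135 and 156 normalized counts with shMETTL3 and 36.98 and 96.9 with shMETTL14, with no overlap between the knockdowns in either gene. The values without 1 library are given beside the promoter windows, and the CXC list had 3 higher and 3 lower without shMETTL3 replicate 2, 2 higher and 1 lower without shMETTL3 replicate 1, and 2 higher and 1 lower without shMETTL14 replicate 1. In the interleukin-1 family 4 of 8 were higher, IL1A (1.06) among them, and 1 was lower. LIF, a cytokine of the interleukin-6 family, had 215 and 155 normalized counts with shMETTL3 and 701 and 617 with shMETTL14 (log2 fold change 1.83, SE 0.18, adjusted p = 1.2e-08, edgeR), and SOCS3, which ends signaling by that family, was higher by 1.61. Of the 13 genes tested of interleukin-6 signaling 6 were higher and 2 lower. No lower member was called there without 1 shMETTL14 library, whichever was left out, and the counts were 6 higher and 1 lower without shMETTL3 replicate 1, and 7 higher and 1 lower without shMETTL3 replicate 2. Among 10 colony-stimulating factors and other cytokines, 4 were higher and 0 lower. Without shMETTL3 replicate 1 there were 6 higher and 0 lower, and, without shMETTL3 replicate 2, 4 higher and 1 lower. Without shMETTL14 replicate 1 the CC chemokines had 2 higher and 0 lower and the interleukin-1 family 3 higher and 0 lower, and without shMETTL3 replicate 2 that family had 4 higher and 0 lower. TSLP, an epithelial cytokine, had at most 3 raw counts in both shMETTL3 libraries and 34 and 28 with shMETTL14 and was at least 10.7-fold higher.

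TNF ligands and receptors moved both ways, with 4 higher and 5 lower of 14 tested. These were 28.6% and 35.7%, beside 16.5% and 18.7% of all genes tested. With counts scaled to the total outside ribosomal RNA, 5 TNF genes were higher and 4 lower. TNFRSF9 was higher by 2.81 and TNFRSF1B, TNF receptor 2, by 1.76 on the log2 scale. TNFRSF11B, the decoy receptor osteoprotegerin, had 680.2 and 780.4 normalized counts with shMETTL3 and 84.96 and 239 with shMETTL14 (log2 fold change -2.18, or -3.10 without shMETTL14 replicate 2), and TNFSF15 was at -1.24. Interferon-stimulated genes were lower more often than higher, with 10 lower and 2 higher of 29 tested (median log2 fold change -0.37). These were 34.5% and 6.90%, beside 18.7% lower and 16.5% higher over all genes tested. DDX60 had 84.1 and 133 normalized counts with shMETTL3 and 12.99 and 26.3 with shMETTL14 (log2 fold change -2.47) and STAT2, a subunit of the interferon-activated ISGF3 factor, was at -1.20. The counts for this list were 2 higher and 4 lower without shMETTL14 replicate 1, and 2 higher and 6 lower without shMETTL14 replicate 2, and 4 higher and 6 lower without shMETTL3 replicate 2, and 3 higher and 8 lower without shMETTL3 replicate 1, and 3 higher and 5 lower with the scaling outside ribosomal RNA. GBP2 (1.64) and SP140L (1.17) were the members that were higher.

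In lists of ribosomal, mitochondrial and core metabolic genes more members were higher than lower with shMETTL14, and many did not pass the test. Of 80 cytoplasmic ribosomal protein genes tested, 53 were higher and 0 lower (median log2 fold change 0.57). RPL29, a protein of the large subunit, had 86.2 and 66.5 normalized counts with shMETTL3 and 188 and 142 with shMETTL14 (log2 fold change 1.12), and RPL14 was at 1.05. The count of this list depended on gene length and GC content, since with offsets for both 10 were called higher and 7 lower. There were 27 higher and 0 lower when shMETTL14 replicate 1 was left out. The members were short, with a median length of 4720.5 bases, and their share of 66.2% higher stands beside 26.4% of all genes of 1 to 10 kb. RNA polymerase I and ribosome biogenesis genes had 17 higher and 2 lower of 45, or 13 and 3 with the offsets. FBL, the methyltransferase fibrillarin of the nucleolus, was higher by 1.26, and without shMETTL14 replicate 1 the list had 7 higher and 1 lower. In the nuclear-encoded respiratory chain 24 were higher and 3 lower of 80, and 10 and 4 with the offsets. These were 30% and 3.75%, near the 26.4% and 5.42% of all genes of 1 to 10 kb, the class of the median length of this list, beside 16.5% and 18.7% of all genes. Without shMETTL14 replicate 1 there were 7 higher and 0 lower, and without shMETTL3 replicate 2 17 higher and 0 lower. The subunit genes SDHA and SDHD of complex II were at 1.32 and 1.49, the latter at 2.21 without shMETTL3 replicate 2.

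Lower glycolysis, the pentose phosphate path and the TCA cycle had 17 genes higher and 2 lower of 31 (median log2 fold change 0.58), and 13 and 2 with both offsets. There were 11 higher and 1 lower when shMETTL14 replicate 1 was left out, and without shMETTL3 replicate 1 18 higher and 4 lower. GAPDH had 1348 and 1011 normalized counts with shMETTL3 and 2879 and 2415 with shMETTL14 (log2 fold change 1.17, SE 0.15, adjusted p = 7.1e-07, edgeR). ACO1, the cytosolic aconitase, was lower (-0.83). Amino acid synthesis and transport genes, many of them targets of the stress factor ATF4, had 16 higher and 4 lower of 34 (12 higher and 2 lower without shMETTL14 replicate 1, and 15 higher and 2 lower without shMETTL3 replicate 2). DDIT4, an inhibitor of mTORC1, was higher by 1.80 and TRIB3, a pseudokinase induced by amino acid stress, by 1.77. The amino acid transporter gene SLC38A2 was lower (-0.56). NRF2 antioxidant genes had 11 higher and 5 lower of 22, with 6 higher and 3 lower without shMETTL14 replicate 1, and 7 higher and 4 lower without shMETTL3 replicate 2. HMOX1, heme oxygenase 1, had 11.3 and 30.4 normalized counts with shMETTL3 and 91.95 and 71.6 with shMETTL14 (log2 fold change 1.95, or 2.86 without shMETTL3 replicate 2). PRDX1, a peroxiredoxin, was at 1.53, and GCLC and TXNRD1, enzymes of the glutathione and thioredoxin systems, were lower (-0.91 and -0.89).

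Cholesterol and fatty acid synthesis moved the other way, with 13 genes lower and 1 higher of 29 (median log2 fold change -0.44). MSMO1, a sterol oxidase of cholesterol synthesis, had 183 and 208 normalized counts with shMETTL3 and 60.97 and 67.4 with shMETTL14 (log2 fold change -1.61, SE 0.19, adjusted p = 3.3e-07, edgeR) against 73.3 and 83.5 with shControl. The sterol carrier gene STARD4 (-1.64) and the sterol desaturase gene SC5D (-1.24) were lower as well, and LSS, lanosterol synthase, was higher (0.82). With offsets for length and GC content 15 were lower and 3 higher, and without shMETTL3 replicate 1 there were 3 higher and 13 lower. In the ER stress and secretory pathway list 11 were lower and 4 higher of 28, but 7 higher and 6 lower with the scaling outside ribosomal RNA. Leaving out libraries gave 1 higher and 7 lower without shMETTL14 replicate 1, and 4 higher and 7 lower without shMETTL14 replicate 2, and 6 higher and 7 lower without shMETTL3 replicate 1, and 2 higher and 10 lower without shMETTL3 replicate 2. The chaperone genes HSPA5 (-0.74) and HSP90B1 (-0.87) were lower, and PPP1R15A, which restores translation after stress, was higher (1.47).

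Most collagen genes were lower with shMETTL14, and in the other matrix lists lower genes outnumbered higher ones. Of 26 collagen genes tested, 17 were lower and 2 higher, with a median log2 fold change of -1.04, and with offsets for length and GC content 19 were lower and 3 higher. Their share of 65.4% lower stands beside 39.8% of all genes of 100 to 300 kb, the class of their median length. COL4A1, a basement membrane collagen, had 3101 and 2962 normalized counts with shMETTL3 and 691 and 1120.5 with shMETTL14 (log2 fold change -1.74, SE 0.17, adjusted p = 1.2e-08, edgeR) and a shControl level of 1675 and 1739.5. COL3A1, a fibrillar collagen, had 880.3 and 633 normalized counts with shMETTL3 and 178 and 316 with shMETTL14 (log2 fold change -1.62). COL11A1 (-1.97) and COL7A1 (-1.72), the collagen of anchoring fibrils, were lower, and COL5A3 (1.64) was higher. Matrix glycoproteins, proteoglycans and crosslinkers had 16 lower and 4 higher of 38 (median -0.72). POSTN, which encodes periostin, had 495 and 604 normalized counts with shMETTL3 and 77.96 and 153 with shMETTL14 (log2 fold change -2.26), and THBS1, thrombospondin 1, was at -1.89, or -2.49 without shMETTL14 replicate 2. LOXL1 (1.81, or 2.73 without shMETTL3 replicate 1), HSPG2, the heparan sulfate proteoglycan perlecan (1.69), and the YAP target genes CTGF (1.17) and CYR61 (0.91) were the higher members. Integrins and laminins had 10 lower and 4 higher of 23, with the collagen-binding subunit genes ITGA1 (-1.80) and ITGA11 (-1.68) lower. Of this list 43.5% were lower and 17.4% higher, beside 18.7% and 16.5% of all genes tested. Among all genes of 30 to 100 kb, the class of its median length, 19.5% were lower. Without shMETTL14 replicate 1 the higher genes numbered 1 among the collagens and 1 among integrins and laminins, without shMETTL3 replicate 1 4 among the collagens and 6 among the glycoproteins, and without shMETTL3 replicate 2 2 among integrins and laminins.

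Proteases and their inhibitors were divided. ADAM and ADAMTS genes had 7 lower and 4 higher of 18. The share of 38.9% lower is near the 39.8% of all genes of 100 to 300 kb, the class of their median length, beside 18.7% of all genes, and without shMETTL14 replicate 1 there were 1 higher and 6 lower. ADAM19 had 2547 and 2186 normalized counts with shMETTL3 and 505 and 854 with shMETTL14 (log2 fold change -1.80) and ADAMTS12 was at -1.22. PLAT, the tissue-type plasminogen activator, had 1777 and 1447 normalized counts with shMETTL3 and 213 and 535 with shMETTL14 (log2 fold change -2.11, SE 0.23, adjusted p = 7.8e-08, edgeR, or -2.91 without shMETTL14 replicate 2), while PLAUR, the receptor of the urokinase type, was higher (0.90). In all, 4 of 11 plasminogen activator and serpin genes tested were higher and 3 lower, with 2 higher and 3 lower without shMETTL14 replicate 1, and 3 higher and 2 lower without shMETTL3 replicate 1, and 2 higher and 4 lower without shMETTL3 replicate 2. Of the matrix metalloproteinase cluster at 11q22, 4 genes were tested and 2 were higher, with MMP3, stromelysin 1, at 184 and 164 normalized counts with shMETTL3 and 604 and 532 with shMETTL14 (log2 fold change 1.71). Without any 1 library other than shMETTL14 replicate 1, 1 of these was called. Of 11 other metalloproteinase and inhibitor genes 3 were higher and 1 lower, or 2 higher and 1 lower without shMETTL14 replicate 1, and 4 higher and 2 lower without shMETTL3 replicate 1, and 3 higher and 2 lower without shMETTL3 replicate 2. MMP14, a membrane-anchored collagenase, was the lower one (-1.05). Of the plasminogen activator and serpin genes 36.4% were higher and 27.3% lower. Of these other metalloproteinase and inhibitor genes 27.3% were higher and 9.09% lower, beside 16.5% and 18.7% of all genes tested. The inhibitor genes TIMP1 (1.34) and TIMP3 (1.64) were higher, but each lies within another gene (SYN1 and SYN3), and the reads of the pairs cannot be told apart.

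Actin and cytoskeletal genes were higher more often than lower, at 15 and 7 of 32, and 8 and 4 with both offsets. Those 15 and 7 were 46.9% and 21.9%, beside 16.5% and 18.7% of all genes tested. Scaled to the library total, the actin and cytoskeletal genes were 7 higher and 10 lower, and the median turned from 0.21 to -0.055. Without shMETTL14 replicate 1 there were 9 higher and 4 lower. ACTB, β-actin, had 1683 and 1298 normalized counts with shMETTL3 and 3810.1 and 3129.7 with shMETTL14 (log2 fold change 1.22), EZR, which links actin to the membrane, was at 2.14 (2.78 without shMETTL3 replicate 1), and the actin monomer binder PFN1 at 1.20. The kinase genes ROCK1 (-0.95) and ROCK2 (-0.61), which promote contraction, were lower. Contractile and myofibroblast genes had 8 higher and 9 lower of 28 (12 higher and 6 lower with the scaling outside ribosomal RNA, and 6 higher and 6 lower without shMETTL14 replicate 1), with SMTN, smoothelin, at 1.21 and CALD1, caldesmon, at -0.93. Of 25 YAP and TEAD targets 7 were higher and 8 lower (7 higher and 2 lower with the same scaling, and 4 higher and 6 lower without shMETTL14 replicate 1). The transcription factor gene TEAD1 (-0.99) and YAP1 (-0.53) were among the lower ones, and the targets AMOTL2 (1.33) and CTGF (1.17) among the higher. Of the contractile genes 28.6% were higher and 32.1% lower, and of the YAP and TEAD targets 28% and 32%, beside the same shares of all genes.

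Growth factor genes differed by family. In the IGF axis 7 were lower and 2 higher of 11, and 1 higher and 4 lower without shMETTL14 replicate 1. IGFBP7, a binding protein secreted by senescent cells, had 698 and 811 normalized counts with shMETTL3 and 113 and 227 with shMETTL14 (log2 fold change -2.15, SE 0.19, adjusted p = 3.9e-09, edgeR), and IGFBP5 was at -1.12. IGFBP3 had 19.5 and 16.1 normalized counts with shMETTL3 and 65.97 and 63.2 with shMETTL14 and was higher (1.86), so that members of one protein family moved in opposite directions. Of 13 angiogenic secreted factors 6 were lower and 0 higher, with PDGFC at -1.54 and HGF, hepatocyte growth factor, at -1.31. EGF receptor and ligand genes were split, with 3 higher and 3 lower of 8 (37.5% each, beside 16.5% and 18.7% of all genes). Each count here was 2 or 3 when 1 library was left out. NRG1, neuregulin 1, had 8024 and 9578 normalized counts with shMETTL3 and 1473 and 2873 with shMETTL14 (log2 fold change -2.02), EGFR itself was at -0.52, and the ligand genes HBEGF (1.75) and EREG (0.88) were higher.

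Of the lists of developmental signaling genes, set beside 16.5% higher and 18.7% lower over all genes tested, TGF-β and BMP genes had 15.4% higher and 41.03% lower, WNT genes 10.3% and 41.4%, and NOTCH genes 0% and 38.5%. TGF-β and BMP genes had 16 lower and 6 higher of 39 (3 higher and 10 lower without shMETTL14 replicate 1), with the signal transducer gene SMAD1 at -1.60 and the latent binding protein gene LTBP1 at -1.16. FSTL3, an activin antagonist, had 10.3 and 3.80 normalized counts with shMETTL3 and 57.97 and 57.9 with shMETTL14 and was higher (3.04), as was ID1, a BMP target (2.03), and without shMETTL3 replicate 1 these values were 3.902 and 2.74. WNT pathway genes had 12 lower and 3 higher of 29 (median -0.65), and 0 higher and 10 lower without shMETTL14 replicate 1, and 1 higher and 11 lower without shMETTL14 replicate 2, and 1 higher and 13 lower without shMETTL3 replicate 2. LEF1, a transcription factor of the pathway, had 143 and 145 normalized counts with shMETTL3 and 24.99 and 50.5 with shMETTL14 (log2 fold change -1.94), and WNT16 was at -2.84, or -3.64 without shMETTL14 replicate 2. NOTCH pathway genes had 5 lower and 0 higher of 13, with the target HEY1 at -3.31 and RBPJ, the DNA-binding factor of the pathway, at -1.20 with 1457 and 1708 normalized counts with shMETTL3 and 599 and 779 with shMETTL14. HEY1 was at -2.58 without shMETTL14 replicate 1 and -4.82 without shMETTL14 replicate 2, and the list had 2 higher and 5 lower without shMETTL3 replicate 1. SLIT, ROBO, semaphorin and ephrin genes had 11 lower and 6 higher of 36, or 30.6% and 16.7%, and all genes of 100 to 300 kb, the class of their median length, had 39.8% lower. SLIT2, a repulsive guidance ligand, had 54.4 and 75.01 normalized counts with shMETTL3 and 313 and 276 with shMETTL14 (log2 fold change 2.18), and SEMA3A was at -1.43. The guidance list had 4 higher and 9 lower without shMETTL14 replicate 1.

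Potassium, calcium and sodium channel genes had 15 lower and 3 higher of 34, and 10 and 6 with offsets for length and GC content. The share of 44.1% lower stands beside 46.5% of all genes of 300 kb or longer, the class of their median length. There were 2 higher and 13 lower when shMETTL14 replicate 1 was left out, and without shMETTL14 replicate 2 2 higher and 14 lower. KCNH1 was at -2.41, and KCNQ5, which shares 9.90% of its span with KCNQ5-IT1, was higher (1.28). Cadherins and synaptic adhesion genes had 8 lower and 4 higher of 24, but 14 higher and 7 lower with the offsets and 10 higher and 7 lower with the scaling outside ribosomal RNA. PCDH18 was lower (-2.56, with -1.86 without shMETTL14 replicate 1 and -3.93 without shMETTL14 replicate 2) and CDH12 higher (2.08). Without shMETTL14 replicate 1 these adhesion genes were 2 higher and 7 lower, and without shMETTL3 replicate 2 6 higher and 7 lower. All 22 genes tested of the protocadherin clusters were called higher (median 0.58), and 10 higher and 0 lower without shMETTL14 replicate 1, but all of them share 5% or more of their span with another row of the same cluster and so count the same reads, which makes them a single observation rather than 22.

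**Figure D4:**
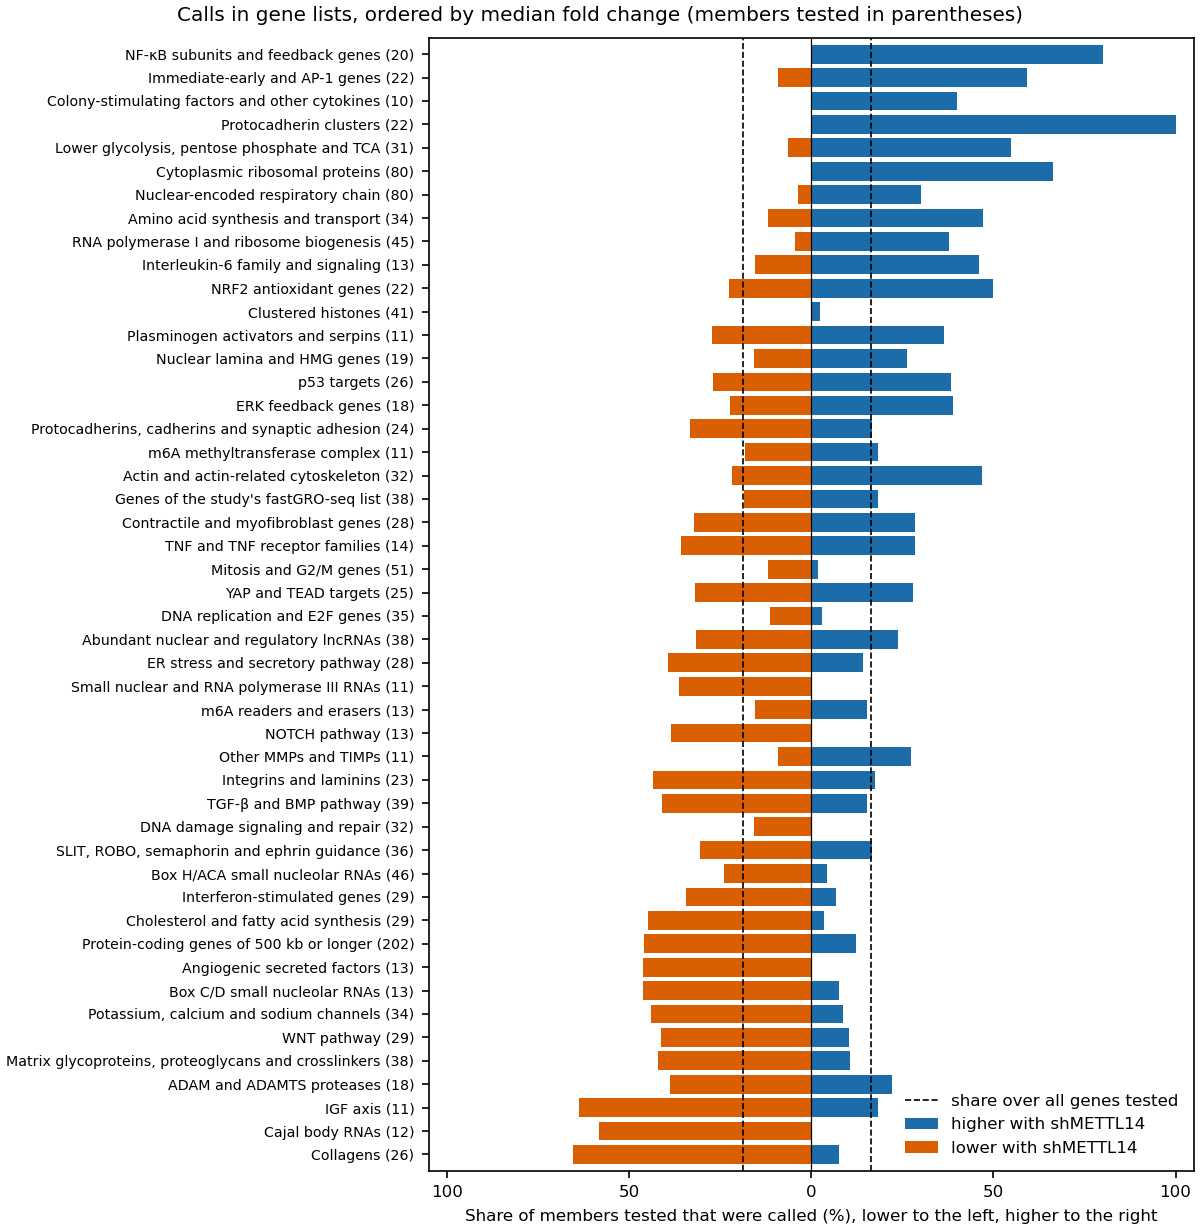
Share of the genes tested in each list that were called higher (right) or lower (left) with shMETTL14 than with shMETTL3, for lists with at least 10 genes tested, ordered by median log2 fold change. Dashed lines give the shares over all genes tested, 16.5% and 18.7%. NF-κB and immediate-early genes stand at the top, and the collagens and Cajal body RNAs at the bottom.

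Few genes of mitosis and DNA replication passed the test. Of 51 mitosis and G2/M genes tested, 1 was higher and 6 were lower, shares below those of all genes. Leaving out libraries gave 0 higher and 2 lower without shMETTL14 replicate 1, and 1 higher and 3 lower without shMETTL14 replicate 2, and 3 higher and 10 lower without shMETTL3 replicate 1, and 1 higher and 2 lower without shMETTL3 replicate 2. The counts behind these genes were low, with CENPF, a kinetochore protein, at 40 and 35 raw counts with shMETTL3 and 8 and 10 with shMETTL14 (log2 fold change -1.99). DNA replication and E2F genes had 4 lower and 1 higher of 35, with 1 higher and 2 lower without shMETTL14 replicate 1, and 0 higher and 2 lower without shMETTL3 replicate 2, and 3 higher and 6 lower without shMETTL3 replicate 1, and 2 higher and 3 lower without shMETTL14 replicate 2. E2F7, a repressor of the family, had 1589 and 1628 normalized counts with shMETTL3 and 302 and 524 with shMETTL14 and was lower by a log2 fold change of -1.96 (SE 0.17, adjusted p = 3.4e-09, edgeR). Targets of p53 had 10 higher and 7 lower of 26, and 4 and 7 with offsets for length and GC content. They were 3 higher and 5 lower without shMETTL14 replicate 1 and 4 higher and 11 lower with counts scaled to the library total. CDKN1A, which encodes the cell cycle inhibitor p21, had 782 and 609.5 normalized counts with shMETTL3 and 1816 and 1577 with shMETTL14 (log2 fold change 1.29) against 858 and 828 with shControl. Of 7 CDK inhibitor and related genes tested, 1 was higher, CDKN1A itself, and 4 were lower, but 4 of the 7 share span with other genes. CDKN2B, which encodes the inhibitor p15, was lower (-0.82) but lies wholly within CDKN2B-AS1. DNA damage genes had 5 lower and 0 higher of 32 (0 higher and 3 lower without shMETTL14 replicate 1, and 0 higher and 8 lower without shMETTL3 replicate 1, and 2 higher and 4 lower without shMETTL3 replicate 2), or 15.6% lower beside 18.7% of all genes. RAD50 was at -1.29 and RAD51B at -1.07. Of 19 nuclear lamina and HMG genes tested, 5 were higher and 3 lower, or 26.3% and 15.8% beside 16.5% and 18.7% of all genes. They were 3 higher and 3 lower without shMETTL3 replicate 2 and 3 higher and 2 lower without 1 shMETTL14 library, whichever was left out. HMGA1 had 327 and 205 normalized counts with shMETTL3 and 1039 and 825 with shMETTL14 and was higher (1.81), LMNA, lamin A, was at 1.08, and LMNB2 at 1.74. HMGA2, the close relative of HMGA1, was lower, at 7054 and 8047 normalized counts with shMETTL3 and 3005 and 3759 with shMETTL14 (log2 fold change -1.16).

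Genes of the m6A machinery were called about as often as all genes, at 18.2% higher and 18.2% lower in the methyltransferase complex, the targets included, and 15.4% and 15.4% among readers and erasers, beside 16.5% and 18.7% over all genes tested. In the methyltransferase complex 2 of 11 genes were higher, METTL3 and RBM15B, and 2 lower, METTL14 and ZC3H13. RBM15B, which guides the complex to RNA, had 25.6 and 16.1 normalized counts with shMETTL3 and 66.97 and 60.02 with shMETTL14 (log2 fold change 1.61) and shares 30.7% of its span with DCAF1. ZC3H13, which keeps the complex in the nucleus, had 213 and 274 normalized counts with shMETTL3 and 134 and 156 with shMETTL14 (log2 fold change -0.75). Of 13 readers and erasers, the eraser gene ALKBH5 (1.01) and the reader gene YTHDF1 (0.82, not past the test without shMETTL14 replicate 1, at 0.74) were higher, and FTO, the other eraser (-0.62), and YTHDC2 (-1.12) were lower. The erasers thus moved in opposite directions, with ALKBH5 at 84.1 and 80.7 normalized counts with shMETTL3 and 165 and 167 with shMETTL14 and FTO at 584 and 656 normalized counts with shMETTL3 and 396 and 413 with shMETTL14. FTO did not pass with offsets for length and GC content (-0.032), and readers and erasers had 2 higher and 4 lower without shMETTL3 replicate 1.

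Noncoding RNA genes lay below protein-coding genes. Of 1061 noncoding RNA genes tested, 124 were higher and 227 lower (median log2 fold change -0.16), against 1973 and 2127 of 11505 protein-coding genes (0.032). NEAT1, the scaffold of paraspeckles, had 5688 and 5966 normalized counts with shMETTL3 and 19604 and 16324 with shMETTL14 (log2 fold change 1.62, SE 0.14, adjusted p = 2.8e-09, edgeR) against 8194 and 8885 with shControl. MIR31HG, a long noncoding RNA beside the CDKN2A locus, had 4426 and 5253 normalized counts with shMETTL3 and 1501 and 2045 with shMETTL14 (log2 fold change -1.45), and FENDRR was at -2.05. Cajal body RNAs, which guide modification of spliceosomal RNAs, had 7 lower and 0 higher of 12 (median -0.84), and 0 higher and 4 lower without shMETTL14 replicate 1. SCARNA2, which stands outside other genes, had 701 and 630.4 normalized counts with shMETTL3 and 222 and 272 with shMETTL14 (log2 fold change -1.43). Most of the small RNA genes lie inside host genes, so their reads include those of the host, as for 46 of the 46 box H/ACA RNAs tested, with 11 lower and 2 higher, and 12 of the 13 box C/D RNAs, with 6 and 1. These counts turned without shMETTL3 replicate 1, to 9 higher and 4 lower and 5 higher and 4 lower, and without shMETTL14 replicate 1 they were 1 higher and 3 lower and 0 higher and 1 lower. Of RNA polymerase III products, RPPH1, the RNA of RNase P, had 4238 and 3333 normalized counts with shMETTL3 and 1628 and 2351 with shMETTL14 (log2 fold change -0.93) and RN7SL3, a signal recognition particle RNA, was at -1.19.

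The genes that the study singled out by fastGRO-seq, 38 of them tested, were chosen on these libraries and are no independent sample. Within them the knockdowns differed both ways, at 7 higher and 7 lower with shMETTL14, shares near those of all genes (16.5% and 18.7%). IL11, an interleukin-6 family cytokine, had 37.96 and 31.3 normalized counts with shMETTL3 and 112 and 76.9 with shMETTL14 (log2 fold change 1.45), and GK, glycerol kinase, had 428 and 453 normalized counts with shMETTL3 and 144 and 229.6 with shMETTL14 (log2 fold change -1.24).

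The difference between the knockdowns followed gene length and base composition. Among genes of 1 to 10 kb, 594 were higher and 122 lower with shMETTL14 (median log2 fold change 0.43), and the ratio turned around with length, to 169 and 817 at 100 to 300 kb (-0.36) and 63 and 274 at 300 kb or longer (-0.46). Genes under 1 kb went against this order, with 10 higher and 29 lower of 148 (-0.12). Of 202 protein-coding genes of 500 kb or longer, 93 were lower and 25 higher. They were 13 higher and 71 lower without shMETTL14 replicate 1. OPCML, a cell adhesion gene, was at -2.27, or -2.95 without shMETTL14 replicate 2, and ADGRL3, an adhesion receptor gene, at -2.35. By GC content the median rose from -0.40 below 36% to 0.57 at 54% or more, where 665 genes were higher and 69 lower. The medians differed by both properties, since in genes under 30 kb the median was 0.44 at a GC content of 44% or more and -0.031 below it, and in genes of 30 kb or longer 0.087 and -0.30. Chromosome 19, which is rich in GC, had 222 genes higher and 35 lower of 830 (median 0.45), and chromosome 13 had 26 and 74 of 257 (-0.24). With offsets for length and GC content these became 122 higher and 67 lower on chromosome 19, and 42 and 50 on chromosome 13.

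The libraries of one knockdown did not stand equally far from shControl in these classes. At a GC content of 54% or more, the median over genes of log2(normalized count + 1) relative to the shControl mean was -0.16 and -0.64 in the shMETTL3 libraries and 0.19 and 0.15 in the shMETTL14 libraries. Below 36% it was 0.058 and 0.40 against -0.25 and -0.16. At 300 kb or longer it was 0.33 and 0.54 against -0.044 and 0.02. Replicate 2 of shMETTL3 thus stood farthest from shControl of the knockdown libraries at the ends of both scales, apart from genes under 1 kb. Without it, 1602 genes were higher and 1838 lower. With an offset fitted to both length and GC content, 2099 genes were higher and 2004 lower, 2887 of the 4507 calls kept their direction and passed, and 201 genes changed sign. Of protein-coding genes of 500 kb or longer, 69 were then higher and 34 lower, the reverse of the uncorrected counts. The part of library composition in the differences by length and GC content was not tested.

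**Figure D5:**
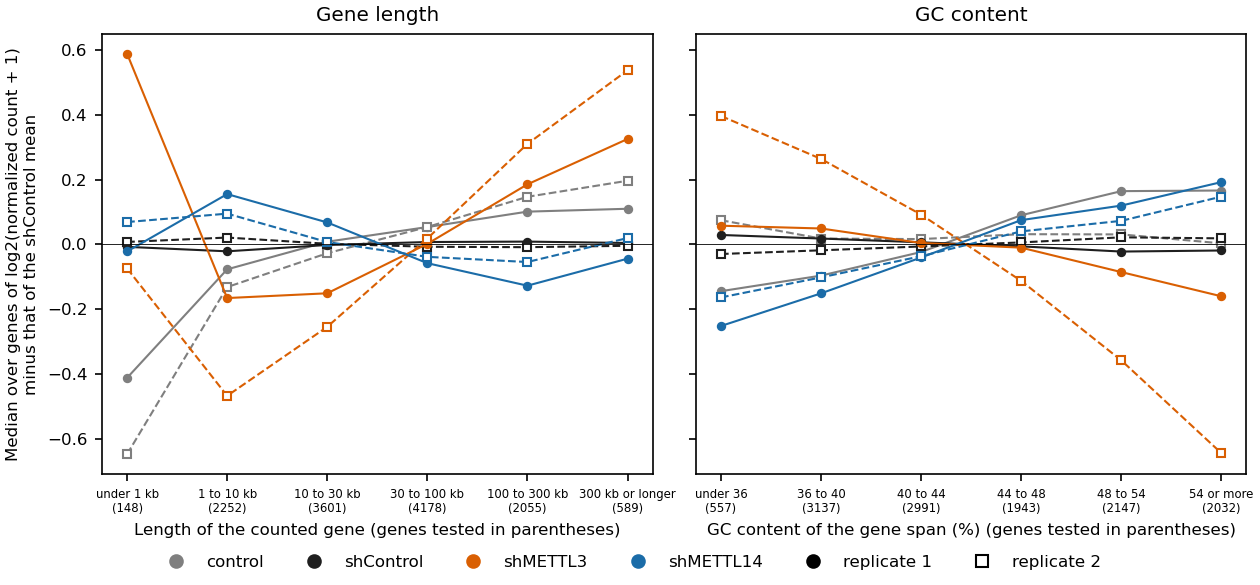
Median over the genes of each class of log2(normalized count + 1) minus that of the shControl mean (y axis), by gene length and by GC content (x axes), with 1 line per library in 4 groups of 2. The shMETTL3 libraries rise with length from 1 to 10 kb upward and fall with GC content, most in replicate 2, and the shMETTL14 libraries stay between -0.25 and 0.19.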

How the data were processed

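FastGRO-seq was run on 8 libraries, 2 of each group. The authors aligned the reads to hg19 with STAR and counted them with HOMER, and the deposited values are raw counts over whole gene spans, introns included, with replicates kept apart. The counting command set a strand option, yet for 313 of 315 genes nested within one on the other strand, the enclosing gene never had the smaller count, so overlapping genes share reads. Spike-in reads were not used here.

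Counts were normalized by TMM and tested with edgeR 4.0.16 (quasi-likelihood, filterByExpr with a minimum count of 10, R 4.3.3) in 1 fit over all libraries and 12844 rows, 12823 of them not ribosomal RNA. The Benjamini-Hochberg adjustment was over all rows, with a threshold of 0.05, and the biological coefficient of variation was 10.6%. Normalized counts are counts scaled by the TMM library size to the mean library. An exact permutation test of 2 libraries against 2 cannot go below p = 0.333 and was not used. The study describes its fastGRO-seq replicates as biologically independent, but no label ties them to separate cultures, so p-values measure the spread between these libraries. That spread is estimated in common over all 8 libraries, although the shMETTL3 replicates differed more than the other pairs. A fit to the 4 knockdown libraries alone gave 1702 higher and 1893 lower genes. A gene with at most 3 counts in both libraries of a group is given as a fold against 3 counts, which covers counting error only.

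Genes were named by rule: METTL3 and METTL14, the 12 largest changes each way among called genes averaging 100 or more counts with no overlap between the knockdowns, up to 4 called members each way per list, and the most counted called gene per class. RELA, RELB, REL, NFKB1, NFKB2, BIRC3, ICAM1, JUN, MYC, YAP1 and a few other list members were picked after their values were seen. Some genes covered by the rule are not reported here. The 76 lists and their members were chosen with earlier results of these data known, and 54 were followed. GC content came from GRCh37 (99.6% of rows) and promoters from RefSeq, GRCh38.p14. Alternatives were DESeq2 1.42.0, limma 3.58.1 with quality weights, other normalizations, filters, thresholds and subsets, a replicate block and, added after seeing the data, both offsets together and the removal of overlapping genes. Scripts were tested on simulated data. Plots were drawn with matplotlib 3.10.9.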

Additional observations from a re-analysis of the deposited data

How the results depend on the processing

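The count of higher genes, 2113 with edgeR, was 1207 with DESeq2, 1172 with library size alone, 3190 with library size without ribosomal RNA rows, 1328 at an adjusted p below 0.01 and 1103 with a change of at least 2-fold. The count of lower genes, 2394, was 1092 with a change of at least 2-fold. Leaving out 1 library gave 979 to 2682 higher and 1404 to 2707 lower genes, the fewest without shMETTL14 replicate 1, and moved the log2 fold change of METTL3 over 1.75 to 2.08 and that of METTL14 over -1.58 to -1.27. METTL3 and METTL14 passed under every alternative run, METTL3 being absent from the fit without overlapping genes. The other alternatives left both counts within 1.5 times. With the replicate number as a block 2089 genes were higher and 2395 lower, METTL3 was at 1.92 and METTL14 at -1.41. The replicates share only a number, since nothing in the labels pairs them and the replicate differences of the knockdowns correlated at 0.11 over 6190 genes. None of the genes followed changed sign under the alternatives run. Over 162 named genes and their alternatives, 3148 values kept their side of the threshold and 39 were no longer past it. Among the 24 genes with the largest changes, 1 lost its call under some alternative, TTC29, which did not pass with DESeq2 (-2.79). The depth limits what low-count genes can show, and 116 called genes had at most 3 counts in both libraries of a knockdown.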

Other observations

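Outside the genes compared, the 5.8S ribosomal RNA row stood apart from the other ribosomal RNA rows. RNA5-8SN1 had 1062 and 1271 raw counts with shMETTL3 and 114 and 341 with shMETTL14 and a log2 fold change of -2.28 (adjusted p = 1.2e-07, edgeR), while the log2 fold changes of RNA18SN1, RNA28SN1 and RNA45SN1 were 0.47, 0.31 and 0.32. Near-identical ribosomal RNA copies share reads, so the rows are not independent.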
